A study of Mus musculus with 9 samples.

Results

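The 10 chemokine genes described here are Ccl2, Ccl7, Ccl5, Ccl20, Cxcl1, Cxcl2, Cxcl5, Cxcl10, Cxcl16 and Cx3cl1. They were taken by gene name from tables of 55487 mouse gene entries, and all 10 were among the 16353 genes with enough counts to be tested. The cells were PT-22, a mouse line labelled as kidney proximal tubule. All libraries shared the genotype given as Pax2-/-, Pax8fl/fl, Rosa-CreERT2, so a Pax2 null genotype was given for the controls too. In this system the ubiquitous Rosa promoter drives a Cre recombinase that 4-hydroxytamoxifen activates, and the line also carries Pax8-pTRIPZ, a doxycycline-inducible vector. Libraries of polyadenylated RNA were compared in 3 groups with n = 3 each. Day 0 cells were untreated. Day 6 cells had received 4-hydroxytamoxifen at 1 uM to remove PAX8, and day 12 cells had then also received doxycycline at 1 ug/ml to restore it. The sources differ on the length of the tamoxifen step. Neither separate cultures for replicates A, B and C nor the clonality of the line is stated. The p-values therefore describe the spread between libraries, which may be technical. Vehicle controls, later untreated cells and day 12 cells kept off doxycycline were not analysed here, so time in culture, each drug and recombination cannot be told apart.

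Chemokines are small secreted proteins that attract leukocytes by binding G protein-coupled receptors on them. The CC ligands mostly act on monocytes, T cells and dendritic cells, and the CXC ligands Cxcl1, Cxcl2 and Cxcl5 act on neutrophils. Cxcl16 and Cx3cl1 differ from the rest in being made as membrane-bound proteins that proteases can shed. Tubule epithelium makes several chemokines when injured, and many chemokine genes are classical targets of the transcription factor NF-kB, while Cxcl10 is also a classical interferon-response gene.

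Several of the genes lie close together in the mouse genome. In GENCODE M21 on GRCm38, Ccl2 (chr11:82035571-82037453) and Ccl7 (chr11:82045712-82047525) are both on the plus strand, 8258 bases apart, with no protein-coding gene between them. Cxcl1 (chr5:90891241-90893115) and Cxcl2 (chr5:90903871-90905938) are likewise adjacent on the plus strand, 10755 bases apart. Cxcl5 (chr5:90759360-90761624, plus strand) lies 129616 bases from Cxcl1, with the chemokine genes Cxcl15, Cxcl3, Pf4 and Ppbp between. Cxcl10 is on the same chromosome (chr5:92346638-92348889, minus strand), and Ccl5 (chr11:83525778-83530518, minus strand) and Cxcl16 (chr11:70453983-70459984, minus strand) are on chromosome 11. Ccl20 (chr1:83116766-83119167, plus strand) and Cx3cl1 (chr8:94772009-94782427, plus strand) stand alone. All 10 are annotated as protein-coding.

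RefSeq promoter windows (GRCm38.p6, 250 bases before to 50 after the transcription start) were found for 5 of the 10 genes, which were Ccl20, Cxcl1, Cxcl2, Cxcl10 and Cx3cl1. The NF-kB consensus was matched on either strand in the windows of Ccl20, Cxcl1, Cxcl2 and Cxcl10, and in 4.51% of all 32851 windows of this length. Stretches from 190 to 41 bases before the start are shown for these 4 genes because they hold the matches, which are in capitals. The Ccl20 stretch is chr1:83116576-83116725 on the plus strand, the Cxcl1 stretch chr5:90891055-90891204 on the plus strand, the Cxcl2 stretch chr5:90903709-90903858 on the plus strand and the Cxcl10 stretch chr5:92348930-92349079 on the minus strand.
Ccl20: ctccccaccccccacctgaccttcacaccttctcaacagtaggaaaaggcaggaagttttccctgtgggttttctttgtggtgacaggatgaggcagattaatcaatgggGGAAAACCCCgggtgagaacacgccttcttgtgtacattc
Cxcl1: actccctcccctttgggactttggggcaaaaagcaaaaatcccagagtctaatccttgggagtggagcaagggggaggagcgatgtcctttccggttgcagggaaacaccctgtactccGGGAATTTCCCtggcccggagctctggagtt
Cxcl2: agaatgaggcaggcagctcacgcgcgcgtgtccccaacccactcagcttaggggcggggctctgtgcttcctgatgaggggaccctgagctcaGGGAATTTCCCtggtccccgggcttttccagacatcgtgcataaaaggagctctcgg
Cxcl10: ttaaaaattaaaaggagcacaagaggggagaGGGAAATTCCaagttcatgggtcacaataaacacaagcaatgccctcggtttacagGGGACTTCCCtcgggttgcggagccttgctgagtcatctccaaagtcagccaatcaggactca
In Cxcl1 and Cxcl2 the capitals cover overlapping matches on both strands, and the stretch in capitals has the same letters in both genes. Cxcl10 held separate matches from -159 to -150 and from -103 to -94. Its window also held the core of the interferon-stimulated response element (GAAA, any 2 bases, GAAA) from -213 to -204, found in 3.44% of all windows, and the AP-1 motif TGANTCA from -74 to -68, found in 7.81%. None of these motifs was matched in the Cx3cl1 window, which held TATAAA (13.6% of windows) from -6 to -1. The GENCODE start of Cx3cl1 lies 171 bases upstream of the RefSeq start, so its window sits differently. A match describes letters only and does not show that a factor binds there.

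**Figure D1:**
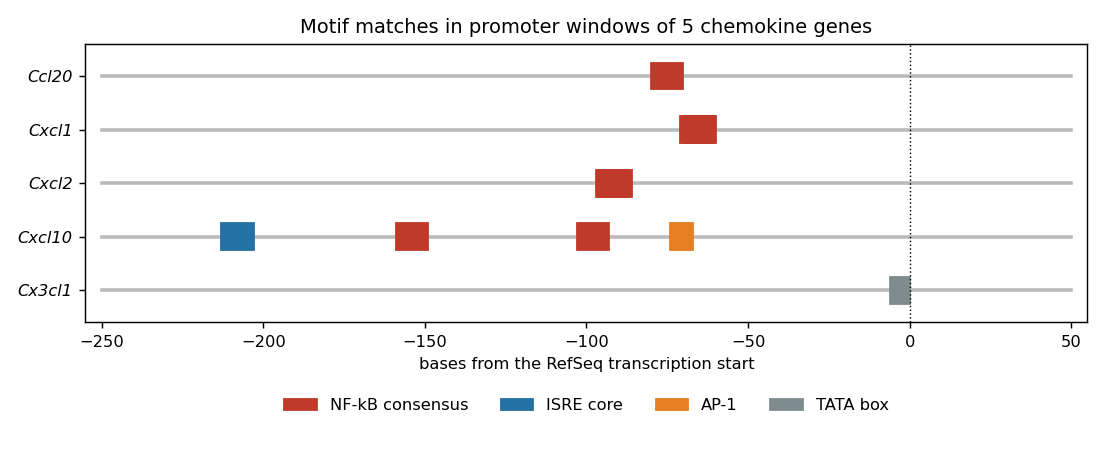
Motif matches in the RefSeq promoter windows of Ccl20, Cxcl1, Cxcl2, Cxcl10 and Cx3cl1; the horizontal axis gives bases from the transcription start (dotted line) and each coloured block is a match to 1 motif on either strand. NF-kB consensus matches lie between -159 and -61 in 4 of the 5 windows, and the Cx3cl1 window holds only a TATAAA match.

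The 9 libraries held between 56397100 and 86765292 counts. In CPM, the count scaled to library size, a single count stood for 0.0115 to 0.0177. Mitochondrially encoded genes took 6.66% to 7.18% of the counts at day 0 and day 6 and 2.10% to 3.96% at day 12. Pax8 itself, the targeted gene, was not lower after tamoxifen, with 291 ± 1.67, 405 ± 5.87 and 496 ± 7.79 CPM in the day 0, day 6 and day 12 groups (SD, n = 3). Pax2, labelled -/- throughout, had 1924 to 4215 counts in a library, or 31.9, 46.9 and 52.3 CPM in the 3 groups. Counts summed over all exons of a gene do not check the loss of some of them, which the labels do not name, and vector-borne and endogenous Pax8 reads share one count. No direction below is therefore a measured response to the level of PAX8. Of 20 proximal tubule markers, 8 were abundant enough to test, and 1 rose and 6 fell by day 6 (median log2 fold change -0.54). Of all genes tested, 33.5% rose and 31.4% fell by then. Slc34a1 and Slc22a6 had no count in any library and Hnf4a and Slc5a2 had at most 0.0358 CPM. Lrp2, the endocytic receptor megalin, had 391, 58.7 and 71.7 CPM at the 3 times and the transporter gene Slc6a18 29.2, 0.0410 and 8.18, while the water channel gene Aqp1, the one that rose, had 119, 324 and 328.

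At day 6 all 10 chemokine transcripts were higher than at day 0, by 2.64-fold for Cxcl10 to 92.5-fold for Ccl5. A gene is said to have risen or fallen when its adjusted p was under 0.05 in edgeR's quasi-likelihood test with Benjamini-Hochberg adjustment over all genes tested. By that rule 10 of 10 rose and none fell, against 33.5% risen and 31.4% fallen of all genes tested, and 10 of 10 rose at least 2-fold, against 9.66%. In all 10 the libraries of the groups did not overlap, which held with the later group higher for 35.5% of all genes. The median log2 fold change was 3.41 over the 10 genes and 0.022 over all genes tested. Ccl20 passed the count filter only through the later groups, where it was higher, so its call against day 0 was in part set by the filter. None of the 10 was lower at an unadjusted p under 0.05 or with DESeq2. These genes, and the lists below, were chosen with earlier results of these data known. Their counts and medians, here and below, thus describe the genes chosen and do not test chemokines as a class. In bulk RNA, more cells making a transcript and more transcript per cell cannot be told apart.

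**Figure D2:**
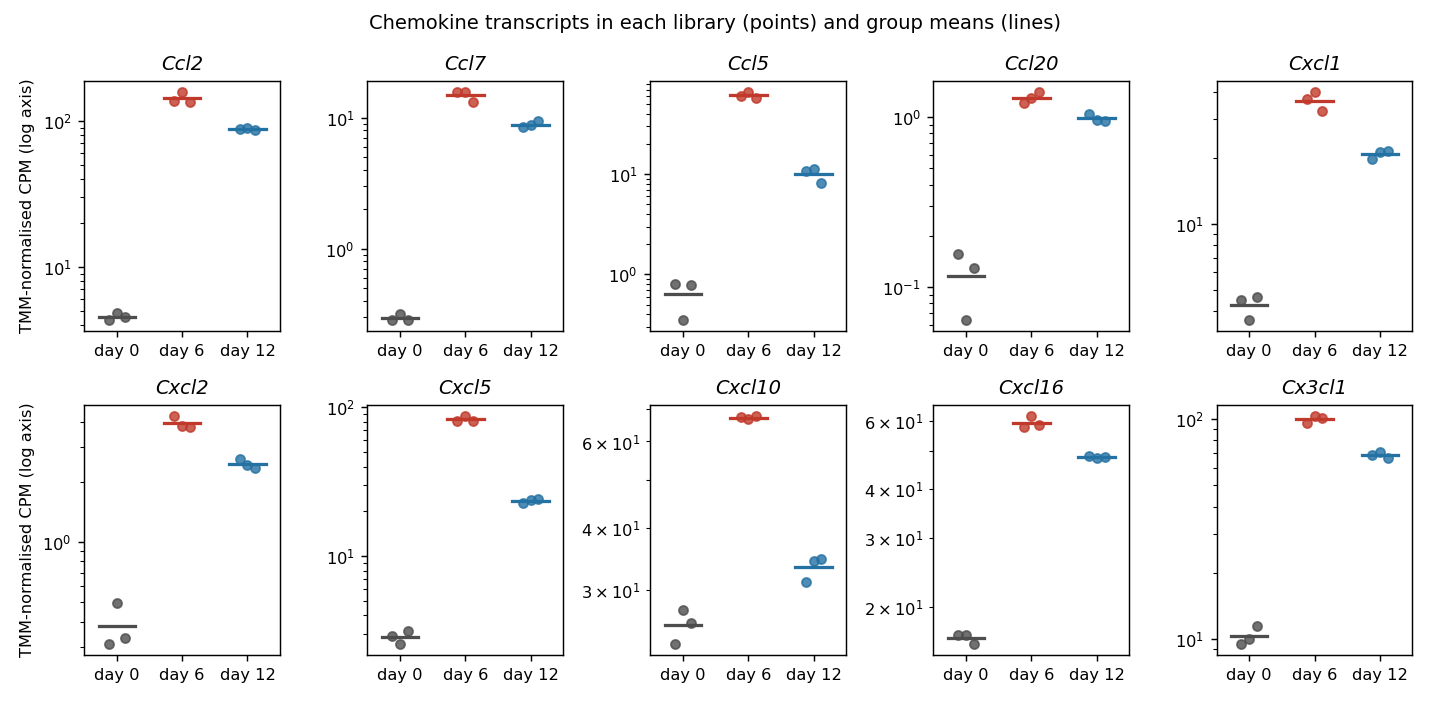
Level of each of the 10 chemokine transcripts in each library (points, replicates A to C from left to right) and the group mean (line), in TMM-normalised CPM on a log axis that differs between panels. In every panel the day 6 libraries are the highest group and the day 12 libraries lie between day 6 and day 0.

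Among the ligands that attract monocytes, Ccl2, which acts through the receptor CCR2, had 4.34, 4.83 and 4.53 CPM in day 0 libraries A, B and C. It had 136, 157 and 135 CPM in the day 6 libraries and 87.4, 89.5 and 86.4 CPM in the day 12 libraries. The 3 groups did not overlap, with day 6 highest and day 12 between. Its rise to day 6 was 31.3-fold (log2 fold change 4.97 ± 0.066 SE, adjusted p = 1.84e-17, edgeR). Ccl7, the neighbouring gene, whose product shares CCR2 with Ccl2, ran lower throughout. Its libraries held 0.287, 0.320 and 0.288 CPM at day 0, then 15.6, 15.6 and 13.2 at day 6 and 8.43, 8.75 and 9.36 at day 12. These groups did not overlap either, and the rise was 49.6-fold (log2 fold change 5.63 ± 0.12, adjusted p = 3.16e-15, edgeR).

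Ccl5, also called RANTES, attracts T cells and monocytes. Its day 0 libraries held 0.800, 0.352 and 0.779 CPM, with library B at less than the others on 22 counts. The day 6 libraries held 60.9, 65.5 and 57.5 CPM and the day 12 libraries 10.7, 11.2 and 8.17 CPM. The groups were far apart and did not overlap. The log2 fold change to day 6 was 6.53 ± 0.15 (adjusted p = 8.07e-15, edgeR), the greatest of the 10. Ccl20, the ligand of CCR6 that attracts dendritic cells and Th17 cells, was the scarcest. It had 13, 4 and 9 counts at day 0, 82, 96 and 81 at day 6 and 80, 72 and 57 at day 12, or 0.155, 0.0639 and 0.130 CPM, then 1.21, 1.295 and 1.39, then 1.03, 0.965 and 0.945. Every day 6 and day 12 library was above every day 0 library, and the day 6 rise was 10.7-fold (log2 fold change 3.42 ± 0.26, adjusted p = 1.34e-08, edgeR). Because the day 0 level rests on few counts, its size depends on the scale, and on log2(TPM + 1) it was 1.68.

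Cxcl1, Cxcl2 and Cxcl5 signal through CXCR2 on neutrophils. Cxcl1 had 4.50, 3.64 and 4.63 CPM at day 0, 37.0, 39.8 and 32.6 at day 6 and 19.7, 21.2 and 21.5 at day 12. All day 6 libraries stood above all day 12 libraries, which stood above all day 0 libraries. Cxcl1 rose 8.53-fold to day 6 (log2 fold change 3.09 ± 0.086, adjusted p = 9.39e-14, edgeR). Cxcl2, its neighbour on chromosome 5, had 0.311, 0.495 and 0.332 CPM, then 4.27, 3.82 and 3.77, then 2.60, 2.44 and 2.34. It kept the same order of groups without overlap and rose 10.6-fold (log2 fold change 3.40 ± 0.16, adjusted p = 4.9e-11, edgeR). Of its 31-base words, 7.59% also occur in Cxcl3, so part of its reads may be assigned to either gene. Cxcl5 had 2.90, 2.59 and 3.16 CPM at day 0, 81.1, 87.3 and 81.4 at day 6 and 22.6, 23.8 and 24.1 at day 12. Its groups also did not overlap, and its rise was 28.8-fold (log2 fold change 4.85 ± 0.060, adjusted p = 8.87e-18, edgeR).

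Cxcl10, the interferon-inducible ligand of CXCR3, was the member with the smallest change against day 0. Its libraries held 23.3, 27.3 and 25.6 CPM at day 0, 67.2, 66.5 and 67.6 at day 6 and 31.1, 34.3 and 34.7 at day 12. The day 12 libraries came back close to the day 0 libraries but did not overlap them. Its rise to day 6 was 2.64-fold (log2 fold change 1.40 ± 0.053, adjusted p = 2.8e-12, edgeR). The gene shares exon bases with Art3 on the other strand, which had 0 to 9 counts in a library.

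Cxcl16, the membrane-bound ligand of CXCR6, had 16.9, 16.9 and 16.1 CPM at day 0, 57.8, 61.6 and 58.3 at day 6 and 48.5, 48.2 and 48.3 at day 12. The day 6 and day 12 groups were close but did not overlap, and both were well above day 0. Cxcl16 rose 3.56-fold to day 6 (log2 fold change 1.83 ± 0.038, adjusted p = 2.88e-15, edgeR). Its exons overlap those of Zmynd15 on the other strand, which had 83 to 121 counts in the day 0 libraries and 429 to 517 at day 6. The strand setting of the counting is not given in the sources used here, so reads of the overlap cannot be told apart between the genes. Cx3cl1, called fractalkine, is the ligand of CX3CR1 and is made on the membrane as well. It had 9.55, 10.003 and 11.4 CPM, then 96.3, 103 and 102, then 68.3, 70.6 and 66.8, with no overlap between groups. The rise was 9.74-fold (log2 fold change 3.28 ± 0.054, adjusted p = 2.09e-16, edgeR).

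Between day 6 and day 12, the period with doxycycline, 9 of the 10 transcripts fell and 0 rose (edgeR, with 0 risen also at an unadjusted p under 0.05 and with DESeq2), against 22.7% fallen and 22.6% risen of all genes tested. The median log2 fold change was -0.72 over the 10 genes and 0.0084 over all genes tested. In all 10 every day 12 library was below every day 6 library in TMM-normalised CPM, which held for 26.3% of all genes. In TPM the day 6 and day 12 libraries overlapped for Ccl20 (2.95 to 3.23 and 2.65 to 2.96) and Cxcl16 (38.56 to 42.83 and 38.99 to 39.5). A fall of at least 2-fold was called for 3 of them, Ccl5, Cxcl5 and Cxcl10, against 1.99% of all genes. Ccl5 fell most, 6.09-fold (log2 fold change -2.61 ± 0.099, adjusted p = 6.69e-11, edgeR), followed by Cxcl5 at 3.55-fold (-1.83 ± 0.046, adjusted p = 5.5e-13, edgeR) and Cxcl10 at 2.01-fold (-1.01 ± 0.051, adjusted p = 1.36e-09, edgeR). The other falls were smaller. In the CXCR2 ligands they were 1.76-fold for Cxcl1 (-0.81 ± 0.072, adjusted p = 4.65e-07, edgeR) and 1.61-fold for Cxcl2 (-0.68 ± 0.13, adjusted p = 0.000425, edgeR). In the CCR2 ligands they were 1.62-fold for Ccl2 (-0.70 ± 0.048, adjusted p = 3.08e-08, edgeR) and 1.68-fold for Ccl7 (-0.75 ± 0.072, adjusted p = 1.04e-06, edgeR).

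The smallest changes were those of the membrane-bound ligands Cx3cl1 and Cxcl16 and of Ccl20, which is not membrane-bound. Cx3cl1 fell 1.46-fold (log2 fold change -0.55 ± 0.045, adjusted p = 1.95e-07, edgeR) and Cxcl16 1.23-fold (-0.29 ± 0.035, adjusted p = 8.6e-06, edgeR). Ccl20 did not pass the test (-0.40 ± 0.19, adjusted p = 0.107, edgeR) although its libraries did not overlap in CPM. The Cxcl16 call was lost on log2(TPM + 1), where its change was -0.05 (adjusted p = 0.389, limma), and TPM moved the median of all genes between day 6 and day 12 by 0.16. Relative to that median, Cxcl16 stood at -0.21 and Ccl20 at -0.27. The balance of all calls in this comparison depended on scaling, with 3702 risen and 3706 fallen under TMM, 4613 and 3007 under upper-quartile factors and 7998 and 878 on log2(TPM + 1). Mitochondrial counts differed between these groups, and with those genes left out 9 of the 10 chemokines still fell.

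**Figure D3:**
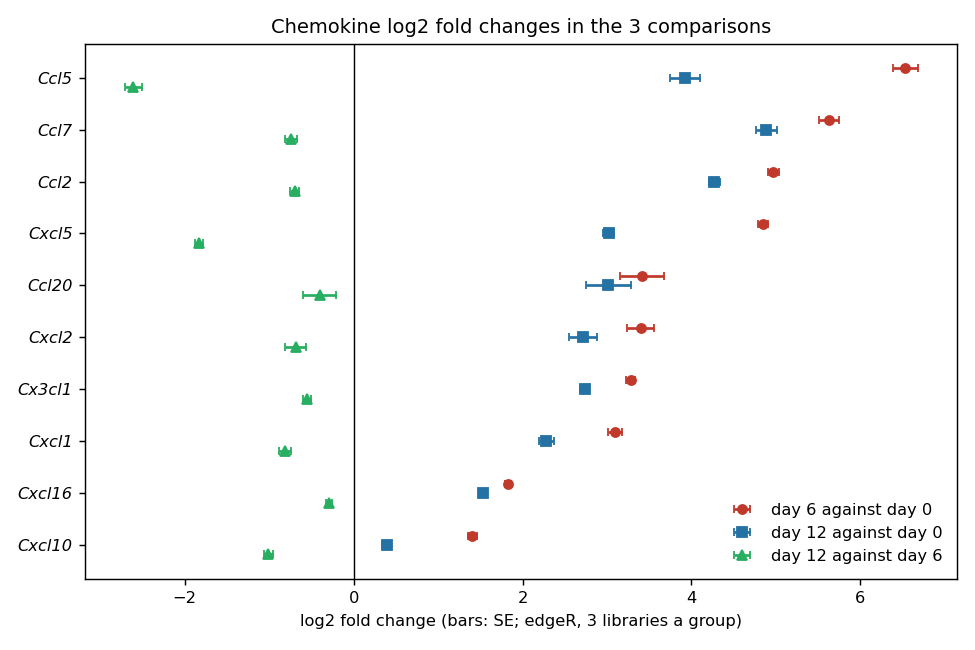
Log2 fold change of each chemokine transcript (points, bars are SE, edgeR on 3 libraries a group) at day 6 against day 0, day 12 against day 0 and day 12 against day 6, ordered by the first. All points against day 0 lie to the right of 0 and all points of day 12 against day 6 to the left, with Ccl5 and Cxcl5 farthest left at -2.61 and -1.83.

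Day 12 against day 0 asks how much of the difference was left after doxycycline. All 10 transcripts were higher at day 12 than at day 0, against 34.7% risen and 31.7% fallen of all genes tested, and 9 of 10 were higher by at least 2-fold, against 9.43%. All of their day 12 libraries were above all of their day 0 libraries, which held for 36.8% of all genes. The median log2 fold change was 2.88 over the 10 genes and 0.025 over all genes. As at day 6, Ccl20 is counted here although it passed the count filter only through the later groups. The CCR2 ligands were farthest above day 0, with Ccl7 at 29.6-fold (log2 fold change 4.89 ± 0.12, adjusted p = 5e-14, edgeR) and Ccl2 at 19.3-fold (4.27 ± 0.066, adjusted p = 2.26e-16, edgeR). Ccl5 was at 15.2-fold (3.93 ± 0.18, adjusted p = 3.21e-11, edgeR), Cxcl5 at 8.12-fold, Ccl20 at 8.09-fold, Cx3cl1 at 6.66-fold, Cxcl2 at 6.57-fold, Cxcl1 at 4.86-fold and Cxcl16 at 2.90-fold. Only Cxcl10 was under 2-fold, at 1.31-fold (0.39 ± 0.054, adjusted p = 1.14e-05, edgeR). The comparison shares its day 0 libraries with that of day 6 and its day 12 libraries with that of day 12 against day 6. On log2(TPM + 1) the calls of all genes were 8455 risen and 1939 fallen, against 5675 and 5186 under TMM.

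The part of the day 6 rise that was reversed by day 12 differed between the genes. On the log2 scale it was 72.0% for Cxcl10, with a range of 68.4% to 75.2% when each library was left out in turn. It was 39.9% for Ccl5 (38.1% to 41.5%) and 37.7% for Cxcl5 (37.1% to 38.2%), so these 3 genes stood apart from the others beyond those ranges. Cxcl1 followed at 26.3% and Cxcl2 at 20.1%. The remaining genes lay close together on this scale, with Cx3cl1 at 16.7%, Cxcl16 at 16.0%, Ccl2 at 14.1%, Ccl7 at 13.2% and Ccl20 at 11.8%. On the linear CPM scale the shares were larger and their order changed. Ccl5 was then at 84.6%, Cxcl10 at 81.0% and Cxcl5 at 74.3%, followed by Cxcl1 at 48.6%, Cxcl2 at 41.8%, Ccl7 at 41.0%, Ccl2 at 39.7%, Cx3cl1 at 35.3%, Ccl20 at 26.96% and Cxcl16 at 25.6%. The same 3 genes thus led on both scales. The shares are descriptions of values already compared above, and no test was made of the differences between genes.

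Levels of different genes were compared in TPM, which accounts for transcript length. At day 0 Cxcl10 was the most abundant of the 10 at 40.6 ± 3.6 TPM (SD, n = 3), and Ccl2 and Cxcl16 followed at 11.1 ± 0.76 and 10.9 ± 0.17, with overlapping libraries. Cxcl1 (7.65), Cx3cl1 (4.88), Ccl5 (3.28), Cxcl5 (2.86), Ccl7 (0.743), Cxcl2 (0.540) and Ccl20 (0.277) came next in mean TPM, and of these neighbours only Ccl5 and Cxcl5 overlapped. At day 6 Ccl2 and Ccl5 led, at 348 ± 31 and 308 ± 25 TPM, and their libraries overlapped. Cxcl10 was at 109, Cxcl5 at 85.0, Cxcl1 at 68.7, Cx3cl1 at 48.9, Cxcl16 at 40.6, Ccl7 at 37.2, Cxcl2 at 6.59 and Ccl20 at 3.07 TPM, with overlap between Cxcl16 and Ccl7 alone. At day 12 Ccl2 led alone at 247 ± 1.9 TPM. Cxcl10 (63.3), Ccl5 (56.9) and Cxcl1 (45.8) formed an overlapping run, followed by Cxcl16 (39.3) with Cx3cl1 (37.7), Cxcl5 (27.7) with Ccl7 (25.5), Cxcl2 (4.37) and Ccl20 (2.79).

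The summed TPM of the 10 genes was 79.6, 85.2 and 83.9 in the day 0 libraries, 1036, 1131 and 1001 at day 6 and 550.3, 549.2 and 550.2 at day 12. The make-up of that sum changed with its size. Cxcl10 took 49.0 ± 2.8% of it at day 0, 10.4 ± 0.79% at day 6 and 11.5 ± 0.83% at day 12. Ccl2 took 13.4 ± 0.55%, 32.9 ± 0.99% and 44.8 ± 0.30%, and Ccl5 3.98 ± 1.6%, 29.2 ± 0.64% and 10.3 ± 1.5%. The single greatest share thus belonged to Cxcl10 at day 0 and to Ccl2 at day 6 and day 12, with Ccl5 close behind Ccl2 at day 6.

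**Figure D4:**
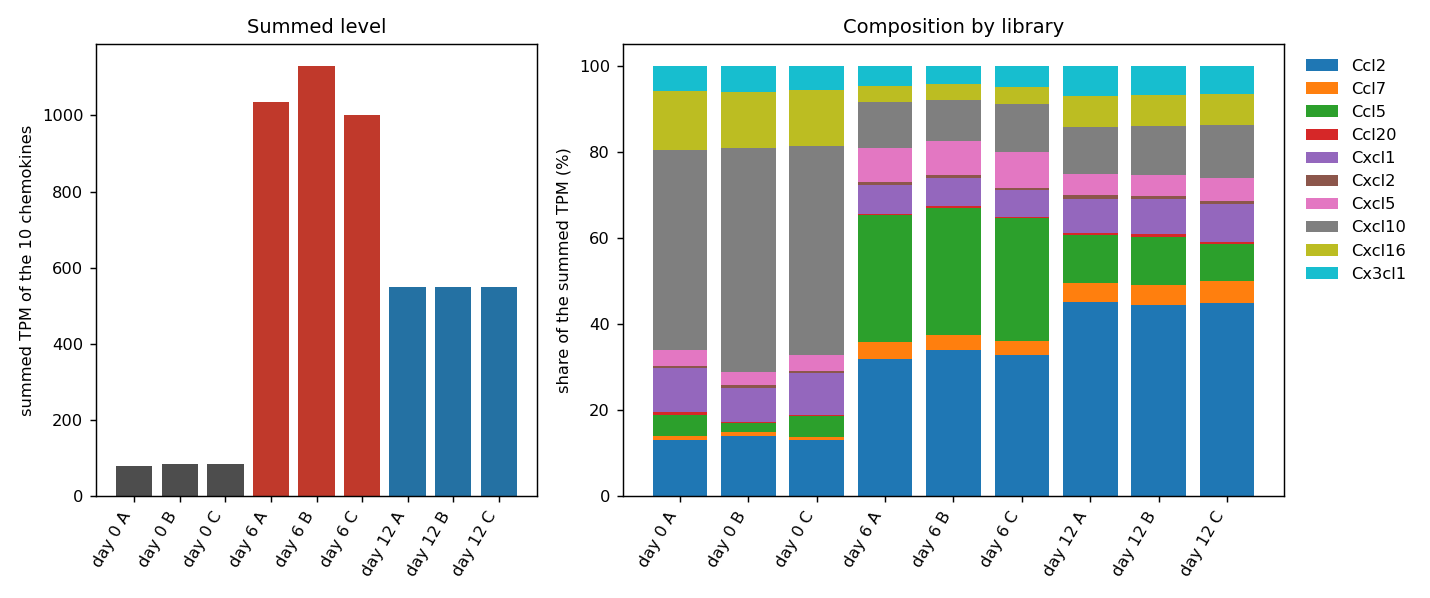
Left, summed TPM of the 10 chemokine transcripts in each library (bars from 0); right, the share of that sum taken by each transcript, in percent. The sum is 79.6 to 85.2 at day 0, 1001 to 1131 at day 6 and about 550.2 at day 12, and the Cxcl10 share falls from 49.0% to 10.4% while Ccl2 and Ccl5 widen.

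Ratios within a library showed which neighbours kept step. The TPM ratio of Ccl2 to Ccl7 was 14.7 to 15.4 at day 0, 8.49 to 9.92 at day 6 and 9.003 to 10.1 at day 12, so the last 2 groups overlapped. For the other adjacent pair, Cxcl1 to Cxcl2, it was 9.49 to 19.95, 9.63 to 11.1 and 9.21 to 11.4, with all 3 groups overlapping. The ratio of Cxcl5 to Cxcl1 instead moved from 0.350 to 0.392 at day 0 to 1.19 to 1.36 at day 6 and 0.599 to 0.615 at day 12. Ccl5 to Ccl2 was 0.156 to 0.386, then 0.867 to 0.922, then 0.192 to 0.255, and day 12 lay within the day 0 range. Genes that share a receptor or lie near each other thus did not all keep a fixed ratio.

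Likeness of pattern was measured as the Euclidean distance over the 9 libraries between log2(CPM + 0.1) values centred on day 0, against 10514 genes. Among the members themselves Ccl2 and Ccl7 were nearest to each other, at 0.701, and Ccl20 and Cxcl2 were nearest to Cxcl1, at 0.764 and 0.785. The closest genes outside the list were Dio3 (0.265) and Fas (0.394) for Ccl2, Sod3 (0.484) and C3 (0.713) for Ccl7, and Gfra1 for both Ccl20 (0.491) and Cxcl1 (0.454). They were Rasl11a (0.204) for Cx3cl1, Ephb3 (0.205) for Cxcl16, Acsl3 (0.338) for Cxcl10, C1ra (0.600) for Cxcl2 and Cd74 (0.836) for Cxcl5. Ccl5 had no close match, with Ch25h nearest at 1.88. The added 0.1 CPM shrank changes of genes near that level at day 0, such as Ccl20 (0.116 CPM) and Fas (0.197), so these distances depend on it. In the edgeR fits the log2 fold changes of Fas against day 0 were 5.52 at day 6 and 4.86 at day 12. They were 5.63 and 4.89 for Ccl7, nearer to Fas than the 4.97 and 4.27 of Ccl2. For Ccl20 they were 3.42 and 3.02, nearer to Cxcl2 (3.40 and 2.72) than to Cxcl1 (3.09 and 2.28).

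Of 28 other chemokine genes, 9 were abundant enough to test, and 9 had no count in any library. By day 6, 6 rose and 2 fell, by day 12 against day 6, 3 rose and 3 fell, and against day 0, 6 were higher and 1 lower at day 12. Over all genes tested the shares were 33.5% risen and 31.4% fallen, then 22.6% and 22.7%, and 34.7% and 31.7% against day 0. The median log2 fold change of the 9 genes was 2.93, then 0.16, and 2.00 against day 0. The 6 that rose by day 6 had from 0 (Cxcl15) to 12 (Cxcl3) counts over the day 0 libraries. They passed the count filter only through the later groups, where they were higher. Their number and this median were thus in part set by the filter, and the shares of all genes are not a like comparison. Cxcl3, a neutrophil ligand related to Cxcl2, followed the members at a lower level, with 0.0526, 0.942 and 0.328 CPM (log2 fold change 4.05 and then -1.52, adjusted p = 2.35e-07 and 0.000739, edgeR). Ccl9, a myeloid chemokine, had 1 count over the day 0 libraries and 276 over the day 6 libraries, a ratio of 298 with a 95% counting interval of 53.0 to 11800.5. Cxcl11, a CXCR3 ligand like Cxcl10, had 0.0176, 0.301 and 0.0723 CPM and rose and then fell.

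Other chemokine genes followed another course. Cxcl15, which lies between Cxcl5 and Cxcl1, had 0 counts at day 0, 89 over the day 6 libraries and 194 over the day 12 libraries, at least 32.0-fold and 65.7-fold higher against a floor of 3 counts over the day 0 group. It also rose between day 6 and day 12 (log2 fold change 1.04, adjusted p = 0.00307, edgeR), when 9 of the 10 members fell. Ppbp, the platelet-basic-protein gene between the same members, had 4.03, 4.19 and 5.44 CPM at day 0, 0.118, 0.270 and 0.241 at day 6 and 1.03, 1.03 and 1.13 at day 12. It fell (log2 fold change -4.42, adjusted p = 7.81e-11, edgeR) and then rose (2.33, adjusted p = 3.39e-06, edgeR), with no overlap between groups. Ccl27a fell slightly from 5.61 to 4.80 CPM (adjusted p = 0.0277, edgeR), a call lost without day 0 library B or C, without day 6 library B or C, or with DESeq2. Ccl25, with 3.88, 3.41 and 3.79 CPM, did not pass the test.

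**Figure D5:**
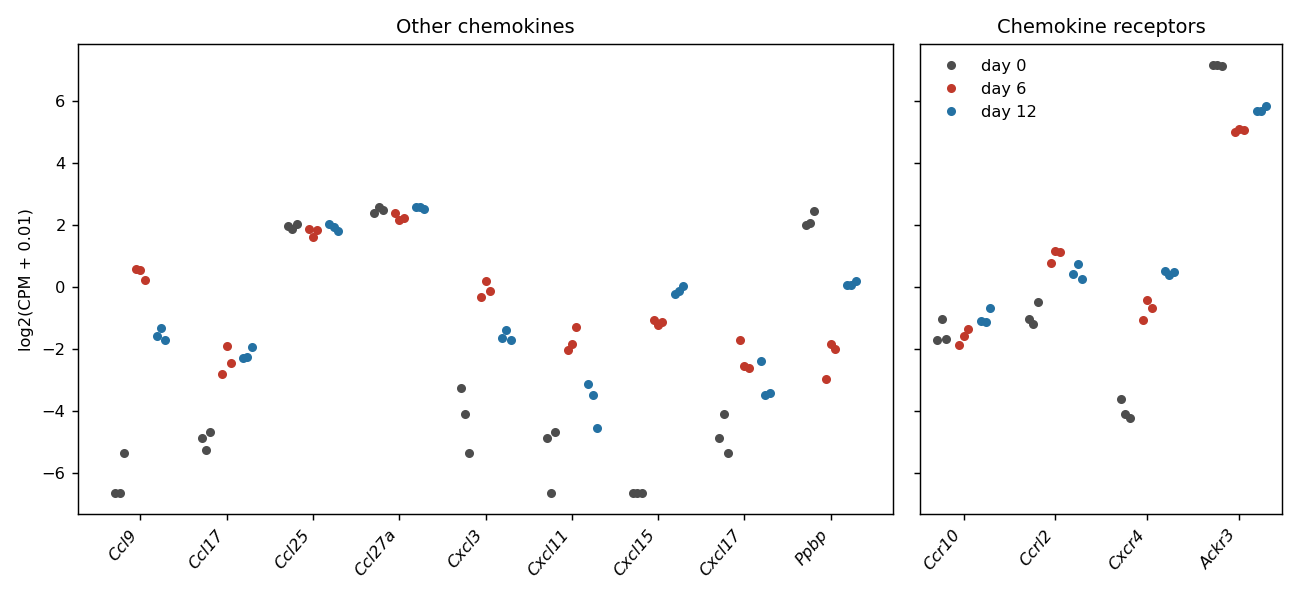
Levels in each library (points) of the 9 other chemokine genes and the 4 chemokine receptor genes that could be tested, as log2(CPM + 0.01) with the pseudocount placing 0 counts at the bottom. Cxcl3, Ccl9 and Cxcl11 are highest at day 6 as the members are, Cxcl15 and Cxcr4 are highest at day 12, and Ppbp and Ackr3 are lowest at day 6.

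Receptors through which the chemokines signal were scarcely detected in these cells. Ccr2, Ccr3, Cxcr1 and Cx3cr1 had 0 counts in all 9 libraries, where 3 counts would be 0.00478 CPM. Over all libraries together Ccr6 had 5 counts, Cxcr2 7, Ccr1 19, Cxcr3 29 and Cxcr6 38. None of the receptor genes named so far was abundant enough to test. Of all 24 receptor genes listed, 4 were tested. Ackr3, an atypical receptor that takes up CXCL11 and CXCL12, had 142, 142 and 140 CPM at day 0, 32.3, 34.5 and 33.2 at day 6 and 51.5, 50.8 and 56.9 at day 12. It fell and then rose in part, without overlap (log2 fold change -2.08 and then 0.67, adjusted p = 2e-15 and 1.33e-08, edgeR). Cxcr4, the signalling receptor of CXCL12, rose in both steps, from 0.0543 to 0.611 to 1.37 CPM, and Ccrl2, a chemerin-binding receptor, stood at 0.539, 2.02 and 1.39 CPM.

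Proteases that shed or trim chemokines mostly rose with the members. Of 15 listed, 14 were tested, and 12 rose and 0 fell by day 6 (edgeR, with 0 fallen also at an unadjusted p under 0.05 and with DESeq2), with a median log2 fold change of 0.78. Over all genes tested 33.5% rose and 31.4% fell. Adam10 and Adam17, which encode sheddases of CX3CL1 and CXCL16, were chosen after their values were seen. Adam10 had 142, 162 and 146 CPM and Adam17 55.5, 65.2 and 68.9, so that both rose by less than 1.5-fold (log2 fold change 0.19 and 0.23, adjusted p = 0.000121 and 1.64e-05, edgeR). The matrix metalloproteinase genes moved more. Mmp3 had 0 counts at day 0 and 398 over the day 6 libraries, at least 143-fold higher against 3 counts over the day 0 group. Mmp9 had 0.0663, 2.38 and 1.16 CPM, and Mmp12 3 and 315 counts at day 0 and day 6. Mmp3, Mmp9, Mmp12 and Mmp13, the last with 0 CPM at day 0 and 0.860 at day 6, passed the count filter only through the later groups. Their rise, the count of 12 risen and the median were thus in part set by it, and the shares of all genes are not a like comparison. By day 12 against day 6, 2 proteases rose and 6 fell under TMM, against 22.6% and 22.7% of all genes, and 4 rose and 3 fell on log2(TPM + 1).

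Most subunits and inhibitors of NF-kB were higher at day 6 as well, with a median log2 fold change of 0.54. Of 15 tested, 11 rose and 3 fell by day 6, against 33.5% and 31.4% of all genes. By day 12 against day 6, 0 rose and 10 fell under TMM (edgeR, with 0 risen also at an unadjusted p under 0.05 and with DESeq2), against 22.6% and 22.7% of all genes. On log2(TPM + 1) the later count was 4 risen and 5 fallen. Nfkbie, an inhibitor of NF-kB, had 6.71, 49.4 and 30.7 CPM, with log2 fold changes of 2.88 and then -0.69. Nfkbia, the classical feedback inhibitor, had 18.9, 65.2 and 49.6 CPM, and Relb, a subunit, 29.8, 56.2 and 45.4. Others in the list took another course. Tnip1 rose and then held, at 76.1, 220 and 220 CPM, and Nfkbiz fell in both steps, at 39.0, 34.9 and 29.2 CPM. Nfkbie, Nfkbia and Relb are themselves known NF-kB targets.

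Several cytokines that induce chemokines were scarce or undetected in the same libraries, and others were not. Il1b, Il17a, Ifng and Ifnb1 had no count in any library, and Tnf had 1 count over the day 0 libraries, 44 at day 6 and 21 at day 12. Of 21 upstream genes tested, 14 rose and 3 fell by day 6, against 33.5% and 31.4% of all genes. Tnf, among those that rose, passed the count filter only through the later groups, where it was higher. By day 12 against day 6, 3 rose and 13 fell, against 22.6% and 22.7% (7 and 3 genes on log2(TPM + 1)). The tumour necrosis factor receptor gene Tnfrsf1b had 10.8, 71.9 and 58.8 CPM and the cytokine gene Il33 2.15, 11.9 and 10.2, while Il18, another cytokine gene, had 2.27, 2.01 and 2.44. The receptor genes Il1r1, with 119, 27.5 and 24.3 CPM, and Il17rc, with 90.7, 32.0 and 48.2, fell by day 6 while all 10 chemokines rose (log2 fold change -2.11 and -1.50, adjusted p = 3.02e-15 and 1.11e-14, edgeR).

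Regulators of the interferon response and of chemokine mRNA decay were called in both directions. Of 9 interferon-response transcription factors, 4 rose and 2 fell by day 6, beside 33.5% and 31.4% of all genes, so these few genes do not set the list apart. Irf1, which acts at the Cxcl10 gene, had 64.7, 106 and 79.8 CPM, so that like Cxcl10 it rose and then fell (log2 fold change 0.71 and -0.41, adjusted p = 7.28e-11 and 2.8e-07, edgeR). Irf8 went the other way, at 16.5, 9.09 and 21.6 CPM. Of 12 decay regulators, 5 rose and 3 fell by day 6, which is again near those shares. By day 12 against day 6, 1 rose and 7 fell, against 22.6% and 22.7% of all genes (3 and 3 regulators on log2(TPM + 1)). Zc3h12a, the ribonuclease that degrades several cytokine transcripts, had 3.19, 9.12 and 5.73 CPM, and Zfp36, which destabilises AU-rich transcripts, 4.86, 10.2 and 9.95. Both rose together with the chemokines at day 6 (log2 fold change 1.51 and 1.07, adjusted p = 1.27e-10 and 3.45e-09, edgeR).

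Markers of other cell types that make chemokines were examined beside these results. Of 20 immune markers, 6 could be tested, and Cd3e, Ncr1, S100a9 and Tyrobp had no count in any library. Among those tested, 3 rose and 2 fell by day 6, against 33.5% risen and 31.4% fallen of all genes tested. The summed TPM of the list was 64.4 to 70.1 at day 0, 119 to 121 at day 6 and 115 to 124 at day 12. Ptprc, the pan-leukocyte gene, had 2.12, 0.0299 and 0.275 CPM and Csf1r 25.5, 7.96 and 13.0, both moving against the chemokines. In contrast, Cd14 had 31.5, 83.4 and 69.3 CPM and Lyz2 0.335, 2.77 and 1.71. Cd68, with 15.7, 15.7 and 13.9 CPM, was not called at day 6. The macrophage marker Adgre1 had at most 0.0166 CPM in a library. Of 10 endothelial markers, 5 were tested, and 3 rose and 1 fell by day 6, against 33.5% and 31.4% of all genes. Vwf had 0.240, 1.62 and 1.299 CPM, Tek 0.0328, 0.170 and 0.214, and Plvap 1.34, 2.53 and 2.42. Egfl7, the most abundant of those tested in CPM, had 5.14, 4.35 and 5.13 CPM and was the one that fell. Pecam1, with 0.188, 0.158 and 0.0828 CPM, was not called at day 6. The summed endothelial markers were 12.9 to 14.8, 10.7 to 13.1 and 15.8 to 16.8 TPM, with Tie1 at 0 and Cdh5 at most at 0.0134 CPM. Of 12 stromal markers, 8 were tested, and 5 rose and 1 fell by day 6, against 33.5% and 31.4% of all genes. Between day 6 and day 12, 2 rose and 3 fell, against 22.6% and 22.7% of all genes. Pdgfrb had 0.0762, 2.45 and 1.52 CPM and Des 1.57, 5.22 and 3.63, so that both rose and then fell as the chemokines did, and Cspg4 had 9.33, 15.96 and 9.48. Col3a1 had 2 counts over the day 0 libraries, 151 at day 6 and 126 at day 12. Dcn went the other way, with 4.92, 0.442 and 5.08 CPM. The summed stromal markers were 27 to 28.1, 28.6 to 29.7 and 35.8 to 36.9 TPM, with Thy1 at 0. Ly6g, Tek, Pdgfrb and Col3a1, at 0.0232, 0.0328, 0.0762 and 0.00879 CPM at day 0, passed the count filter only through the later groups, where they were higher. The counts of risen immune, endothelial and stromal markers were thus in part set by the filter, and the shares of all genes are not a like comparison. The part of cells with any of these markers in the chemokine results was not tested.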

How the data were processed

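RNA-seq of 9 libraries in 3 groups was analysed. The authors deposited raw counts per gene as whole numbers and, in a second table, TPM per gene. Tools named in the submitters' processing notes are STAR 2.7.8a, RSEM 1.3.3, cutadapt 2.3 and FastQC 0.11.8, with build GRCm38. No strand setting or annotation release is given in the sources used here. Counts from RSEM would be estimates, rounded before deposit. Each sample column was matched to 1 label, and 4 transgene entries (0.00204% to 0.00284% of counts) entered neither library sizes nor tests.

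Counts were filtered with filterByExpr by group, scaled by TMM and tested in 1 fit of all 9 libraries with edgeR 4.0.16 (R 4.3.3, quasi-likelihood, two-sided, 6 residual degrees of freedom), with Benjamini-Hochberg adjustment over 16353 genes and a threshold of 0.05. The code was tested on simulated counts. CPM are TMM-normalised, and ± after a log2 fold change is the SE implied by the F statistic. Counting intervals are exact at 95% and, like the floor of 3 counts, cover counting error only. Libraries of a group were compared by chi-square, and none was a duplicate of another (5.21 to 41.2 per degree of freedom).

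Alternatives were DESeq2 1.42.0, its size factors and upper-quartile factors in edgeR, no low-count filter, limma 3.58.1 on log2(TPM + 1) and log2(TPM + 0.1), no mitochondrial genes, a replicate block, only the groups compared, and each library left out. Promoter windows and motif matches came from RefSeq (GRCm38.p6), positions and shared 31-base words from GENCODE M21. Besides the 10 members, genes were named from fixed lists (other chemokines, receptors, proteases, mRNA decay regulators, NF-kB, upstream cytokines, interferon factors, cell type markers) when called in a comparison with a mean of at least 1 CPM, at most 6 a list by largest change; other chemokines and the members' receptors could all be named, and the 2 nearest genes by distance among those of at least 5 CPM. Tnf, Il18, Nfkbiz, Adam10, Adam17, Mmp13 and marker genes were named outside that rule after their values were seen. The members and lists were chosen with earlier results of these data known.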

Additional observations from a re-analysis of the deposited data

How the results depend on the processing

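The members' counts of risen and fallen genes stayed within 1.5 times the reported ones in all 108 alternatives run. Of 540 alternative fold changes of members, 538 kept their direction and their side of the threshold, none reversed, and 2 were no longer called, both for Cxcl16 at day 12 against day 6 (-0.05 on log2(TPM + 1) and on log2(TPM + 0.1), adjusted p = 0.389 and 0.398, limma), which left 8 members fallen there; the cause was not tested. Log2(TPM + 1) also shrank low genes by its construction, with Ccl20 at 1.57 and Cxcl2 at 1.81 for day 12 against day 0, and log2(TPM + 0.1) raised Cxcl10 there from 0.39 to 0.64. Ccl20 was not called at day 12 against day 6 in any alternative (adjusted p from 0.0605 to 0.590). With 1 library left out, the count of members risen at day 6 was 10 throughout, the count fallen by day 12 was 9 throughout, and the count higher at day 12 than at day 0 was 10 throughout. Same-letter libraries showed no large shared deviation (correlations of -0.0834 to 0.0783), which does not settle whether A, B and C mark shared cultures. A fit with the replicate block gave 10 members risen at day 6, 9 fallen by day 12 and 10 higher at day 12 than at day 0. It gave 5405 risen and 5080 fallen genes in all at day 6. Of 756 alternative counts over the other lists 51 moved by over 1.5 times. The call that Ccrl2 fell by day 12 was lost without day 6 library B or C or day 12 library A or C and on TPM. Depth limits Ccl20, the receptors and the rarer chemokines, where a library's level rests on few counts.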
